A study of Mus musculus with 4 samples.

Results

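The genes described here are 36 mouse genes that mark the cells of the nephron, the filtering and transporting unit of the kidney. They were taken by gene symbol from the non-control probes of 4 arrays, on which 69 spots and 51 probes carried them, so that all 36 had a probe. They were read among the 19822 genes or transcripts that were tested. They were grouped by nephron segment: podocyte (3 genes), proximal tubule (15), thick ascending limb (3), distal convoluted and connecting tubule (6), collecting duct principal cell (5) and intercalated cell (4). Total RNA from 3 neural progenitor cell (NPC) lines and from a pool of organs was labelled with Cy3, 0.25 ug each, and hybridised to 1-colour Agilent arrays to find transcription factors enriched in NPC. The pool, called Mixture, joined equal masses of Swiss Webster RNA from kidney, liver, spleen, thymus, lung, heart and embryo of day 11. NS21 (strain 129/Ola, from ES line 21), NS195R (129/Sv, from ES line 195R) and NSEB5-2C (129/Ola, from ES line EB5) are lines that were grown from different embryonic stem cell lines, and each was hybridised once. The source field of the Mixture array names an NPC culture with a Dox label, against its title, cell type and strain, and no treatment is given for the 3 lines.

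Blood is filtered in the glomerulus across the foot processes of podocytes, and the filtrate then passes along a tubule whose segments are told apart by their transporters. The proximal tubule takes back most salt, phosphate, glucose, amino acids and filtered protein and secretes organic anions. The thick ascending limb, the distal convoluted tubule and the collecting duct then adjust salt, calcium, magnesium, water and acid. Because these proteins do the work of a differentiated epithelium, their genes are used as markers of mature kidney cells. Several are also made elsewhere, such as Aqp1 and Podxl in endothelium or Pvalb in muscle and neurons.

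Promoter windows were at hand for 29 of the 36 genes, 32 windows in all, as the 250 bases before a start listed for the gene in RefSeq on GRCm38.p6. That start is the first base of the annotated gene for 16 windows and lies inside the gene for the other 16, by 26 bases in Slc34a1 and by 1928 bases in Slc22a8 among those printed. Slc5a2, Bsnd, Wt1, Calb1, Scnn1a, Podxl and Slc13a1 had no window. The letters GTTAAT, a motif found in promoters of kidney and liver genes, were searched on both strands (the reverse complement is ATTAAC), and the letters TATAA, the core of a common core promoter element, on the strand of the gene. GTTAAT was found in 5 of 29 genes with a window (17.2%) and in 2023 of all 27025 such genes (7.49%). TATAA was found in 8 of 29 (27.6%) and in 4971 of all 27025 (18.4%), and the median number of CG dinucleotides per window was 4 against 6. The windows with GTTAAT, and that of Kap, which carries TATAA alone, are printed because 5 of these 6 genes passed the test below. Capitals mark these motifs, and each sequence runs 5′ to 3′ on the strand of the gene.
Slc34a1, chr13:55399398-55399647, plus strand: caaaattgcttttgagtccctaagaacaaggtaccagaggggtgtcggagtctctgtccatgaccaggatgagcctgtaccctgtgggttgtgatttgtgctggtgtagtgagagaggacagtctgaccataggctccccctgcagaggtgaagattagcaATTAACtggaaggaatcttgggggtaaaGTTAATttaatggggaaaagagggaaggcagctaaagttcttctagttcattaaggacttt
Slc22a6, chr19:8617746-8617995, plus strand: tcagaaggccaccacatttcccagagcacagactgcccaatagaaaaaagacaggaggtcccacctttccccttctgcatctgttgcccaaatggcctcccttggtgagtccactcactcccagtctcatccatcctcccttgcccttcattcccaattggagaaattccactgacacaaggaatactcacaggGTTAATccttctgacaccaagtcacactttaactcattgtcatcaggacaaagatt
Slc22a8, chr19:8592932-8593181, plus strand: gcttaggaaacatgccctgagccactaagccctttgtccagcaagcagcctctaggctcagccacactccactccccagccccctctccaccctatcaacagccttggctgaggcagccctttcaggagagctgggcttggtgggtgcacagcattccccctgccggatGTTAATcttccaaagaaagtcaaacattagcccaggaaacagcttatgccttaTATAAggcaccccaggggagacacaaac
Umod, chr7:119479263-119479512, minus strand: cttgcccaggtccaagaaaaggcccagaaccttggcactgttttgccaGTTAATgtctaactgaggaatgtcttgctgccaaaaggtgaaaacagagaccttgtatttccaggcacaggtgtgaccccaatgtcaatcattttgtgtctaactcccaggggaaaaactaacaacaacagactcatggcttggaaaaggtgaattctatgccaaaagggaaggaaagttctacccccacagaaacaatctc
Atp6v0a4, chr6:38124587-38124836, minus strand: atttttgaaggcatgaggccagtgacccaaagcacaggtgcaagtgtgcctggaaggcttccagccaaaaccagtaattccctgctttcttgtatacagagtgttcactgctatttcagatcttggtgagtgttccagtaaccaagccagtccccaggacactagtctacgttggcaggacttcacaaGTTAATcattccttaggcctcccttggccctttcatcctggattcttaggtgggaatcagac
Kap, chr6:133853668-133853917, minus strand: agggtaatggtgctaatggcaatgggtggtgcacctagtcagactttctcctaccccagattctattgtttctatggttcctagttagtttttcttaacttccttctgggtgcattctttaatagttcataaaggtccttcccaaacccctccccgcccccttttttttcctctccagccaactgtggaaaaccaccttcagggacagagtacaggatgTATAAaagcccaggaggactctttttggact
Counted back from the listed start to the first base of the motif, GTTAAT lay at -61 in Slc34a1, -56 in Slc22a6, -81 in Slc22a8, -62 in Atp6v0a4 and -202 in Umod. Slc34a1 also held ATTAAC at -89. TATAA lay at -28 in Slc22a8 and at -31 in Kap, and the 2 motifs do not overlap in these windows. The other members with TATAA were Aqp2, Aqp3, Slc12a3, Slc26a4, Slc3a1 and Trpv5. These are matches of letters, and no binding was measured.

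The share of non-control spots well above background, a flag that the scanner software sets for each spot, was 61.87% in Mixture and 55.29% to 59.22% in the lines. The 75th percentile of processed intensity lay between 231.86 and 258.53, and the median between 13.77 and 20.34 in the lines against 30.47 in Mixture. The number of arrays limits the precision. All 4 arrays shared 1 slide and 1 scan. Among neural progenitor markers, Nes and Vim were well above background in all 3 lines, Sox2 was not in NS21, and Fabp7 was in NS195R alone among the lines. In Mixture, all tested markers of lung epithelium (6), muscle (6) and liver (4) were well above background, against 17157 of all 19822 genes. Intensities are the processed signal in arbitrary units, after background subtraction, as deposited. The ratio of NPC to Mixture is the mean of 3 lines minus the 1 Mixture array in log2 signal, each array scaled to its 75th percentile, with its SE from limma. Where no line had a gene well above background, the fold is a bound, written as at least. It sets Mixture against the mean over the lines of the lowest signal well above background, or the gene's own signal if higher. The log2 ratio, SE and p of such a gene are not bounds. They use the deposited line values, which were not measured levels, and median log2 ratios include them. In bulk RNA, fewer cells of a type and less RNA per cell cannot be told apart.

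All 36 genes were well above background in Mixture. In the lines, NS21 had 11 of them above background, NS195R 10 and NSEB5-2C 8. Podxl, Slc22a12, Aqp1, Lrp2, Cubn and Aqp2 were above background in all 3 lines, 2 genes in 2 lines and 7 in 1 line, and 21 in no line. In limma with Benjamini-Hochberg adjustment over all 19822 genes, 22 of the 36 were lower in NPC, against 8.91% of all genes, and 0 were higher, against 0.948%. At an unadjusted p under 0.05, 32 were lower (15.4% of all genes) and 0 were higher (15.6% of all genes). The 21 genes found in no line passed the filter on dim signal through Mixture alone and had to differ from it, so these counts describe the set and support nothing. The median log2 ratio of the 36 was -6.63, and that of all genes tested was 0.44.

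Of the 22 genes called lower, 20 were well above background in no line and Slc3a1 and Calb1 in 1 line. Their adjusted p from limma ran from 0.00846 to 0.0338. For the 20, the line values that entered limma were not measured levels. For Slc3a1 and Calb1, only the value of the 1 line above background was. None of the 6 genes measured on all 4 arrays passed the adjusted test in limma, while 5 of them had an unadjusted p under 0.05; with the test limited to genes measured on all 4 arrays, limma called 0 of all genes. With 1 line left out, whether NS21, NS195R or NSEB5-2C, limma called 0 of the 36 and 0 of all genes, with 29, 30 and 29 of the 36 at an unadjusted p under 0.05. For the 21 genes found in no line, the bound ran from at least 1.72-fold to at least 4314-fold lower, with a median of 63.8. With dim values raised to the array's lowest signal well above background, 35 of the 36 were lower than Mixture in each line. Trpm6 in NS21 was the exception. The count covers only the probe used for each gene, and leaves out the dimmer probe of Podxl described below. For the 21 genes found in no line, that outcome was nearly fixed by the filter, so the count supports nothing. Its share over all genes was not counted.

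**Figure D1:**
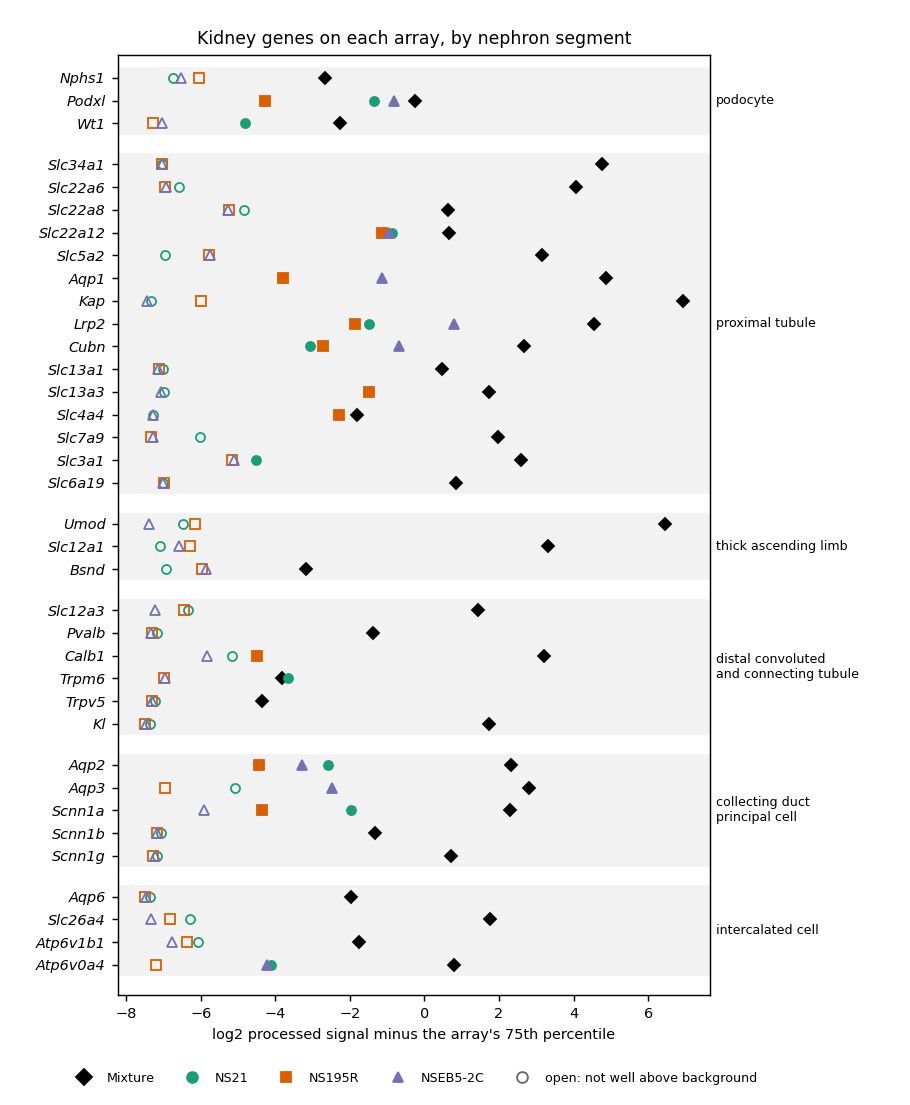
Scaled log2 signal of the 36 kidney genes on each of the 4 arrays, by nephron segment (x axis: log2 processed signal minus the array's 75th percentile). Filled symbols are well above background and open ones are not. Mixture is filled in all 36 rows, while NS21 is filled in 11, NS195R in 10 and NSEB5-2C in 8.

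Of the 3 podocyte genes, 1 was called lower in NPC, and their median log2 ratio, -3.79, was the nearest to 0 of the 6 segments. Nphs1, which encodes nephrin of the slit diaphragm, gave 40.9 in Mixture and 2.21, 3.82 and 2.49 in NS21, NS195R and NSEB5-2C. No line was well above background, so Nphs1 was at least 5.59-fold lower (log2 ratio -3.79, SE 0.47, adjusted p = 0.0338, limma). Its call was lost with normexp background correction and with scaling to the median. Podxl, the sialoprotein podocalyxin that coats podocytes and also endothelium and early progenitors, read 218 in Mixture and 93.4 (NS21), 13.1 (NS195R) and 131 (NSEB5-2C) in the lines. On the probe used, it was above background everywhere and below Mixture in each line, by 2.15, 16.2 and 1.49-fold. It did not pass limma (log2 ratio -1.90, SE 1.69, adjusted p = 0.511). Its other probe gave 28.9 in Mixture, 28 in NS21, 33.8 in NSEB5-2C and 6.15, not well above background, in NS195R. Both probes had NS195R lowest, but on the dimmer one NS21 lay near Mixture and NSEB5-2C above it. Scaling raised both lines against Mixture, whose 75th percentile was the highest (258.53, against 238.48 in NS21 and 231.86 in NSEB5-2C). On that probe Podxl was thus not below Mixture in these lines. Wt1, a transcription factor of podocytes and of the kidney, gonad and mesothelium of the embryo, gave 53.8 in Mixture and 8.45 (NS21), 1.63 (NS195R) and 1.75 (NSEB5-2C) in the lines. It was printed 10 times on each array, and 6 of the 9 copies kept in NS21 were above background, against 0 of 9 in each other line. Wt1 did not pass the test (log2 ratio -4.11, SE 1.26, adjusted p = 0.145, limma). It did with dim values raised (log2 ratio -2.80, adjusted p = 0.0249, limma). That setting puts unmeasured lines at nearly the same level and so narrows their spread, and the pass supports nothing.

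Of the 15 proximal tubule genes, 9 were called lower in NPC and 6 were not, with a median log2 ratio of -7.55. Slc34a1, the sodium-phosphate cotransporter of the brush border, gave 6979 in Mixture and 1.8, 1.93 and 1.75 in NS21, NS195R and NSEB5-2C. It was at least 954-fold lower in NPC (log2 ratio -11.80, SE 0.34, adjusted p = 0.00846, limma). Kap, the kidney androgen-regulated protein of proximal tubule cells, read 31569 in Mixture and 1.47, 4 and 1.33 in the lines, in the same order. Its bound, at least 4314-fold lower, was the largest of the 21 (adjusted p = 0.00973, limma). The lines were at background for both genes and far from Mixture.

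The basolateral organic anion transporters Slc22a6 and Slc22a8 were at least 590-fold and at least 52.2-fold lower. Slc22a6 gave 4315 in Mixture against 1.91 to 2.49 in the lines, and Slc22a8 gave 402 against 6.06 to 8.38. The glucose transporter of the early proximal tubule, Slc5a2, was at least 314-fold lower, and the sulphate transporter Slc13a1 at least 48.6-fold. For amino acids, the neutral carrier Slc6a19 was at least 63.8-fold lower and Slc7a9, the light chain of the cystine transporter, at least 139-fold. Slc3a1, the heavy chain that pairs with Slc7a9, gave 1555 in Mixture and 10.3 (NS21), 7.11 (NS195R) and 6.65 (NSEB5-2C) in the lines, with NS21 above background. It was called lower in NPC (log2 ratio -7.52, SE 0.46, adjusted p = 0.0104, limma).

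Of the 4 proximal genes above background in all 3 lines, 3 are receptors or channels of the apical membrane. Lrp2, or megalin, takes up filtered protein and is also made by neuroepithelium and other embryonic epithelia, and it gave 6071 in Mixture and 84.5 (NS21), 68.9 (NS195R) and 404 (NSEB5-2C) in the lines. Its partner cubilin, Cubn, gave 1653 in Mixture and 28.2 (NS21), 38.1 (NS195R) and 145 (NSEB5-2C) in the lines. The water channel Aqp1 gave 7511 in Mixture and 17.1 (NS21), 18.1 (NS195R) and 106 (NSEB5-2C) in the lines. In these 3 genes all lines were above background and NSEB5-2C was the highest line, yet Mixture exceeded NSEB5-2C by 13.5-fold for Lrp2, 10.2-fold for Cubn and 63.4-fold for Aqp1. None of the 3 passed limma, with adjusted p = 0.109, 0.111 and 0.0721 and unadjusted p = 0.0222, 0.0229 and 0.00908.

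Slc22a12, the urate transporter of the apical membrane, gave 405 in Mixture and 131 (NS21), 114 (NS195R) and 120 (NSEB5-2C) in the lines. The lines lay within 1.21-fold of each other after scaling, and all were below Mixture, by 2.86 to 3.46-fold. The mean difference was 3.1-fold (log2 ratio -1.63, SE 0.36) and did not pass limma (adjusted p = 0.0948).

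Both remaining proximal genes were found in NS195R and in neither other line. Slc13a3, a sodium-dicarboxylate cotransporter, gave 851 in Mixture, and the lines gave 90.5 (NS195R), 1.89 (NS21) and 1.73 (NSEB5-2C). Slc4a4, a sodium-bicarbonate cotransporter of the basolateral membrane that is also made by astrocytes and other brain cells, gave 74.5 in Mixture, and the lines gave 51.5 (NS195R), 1.54 (NS21) and 1.5 (NSEB5-2C). Mixture was 9.17-fold above NS195R for Slc13a3 and 1.41-fold for Slc4a4. Neither gene passed limma (adjusted p = 0.22 and 0.4).

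**Figure D2:**
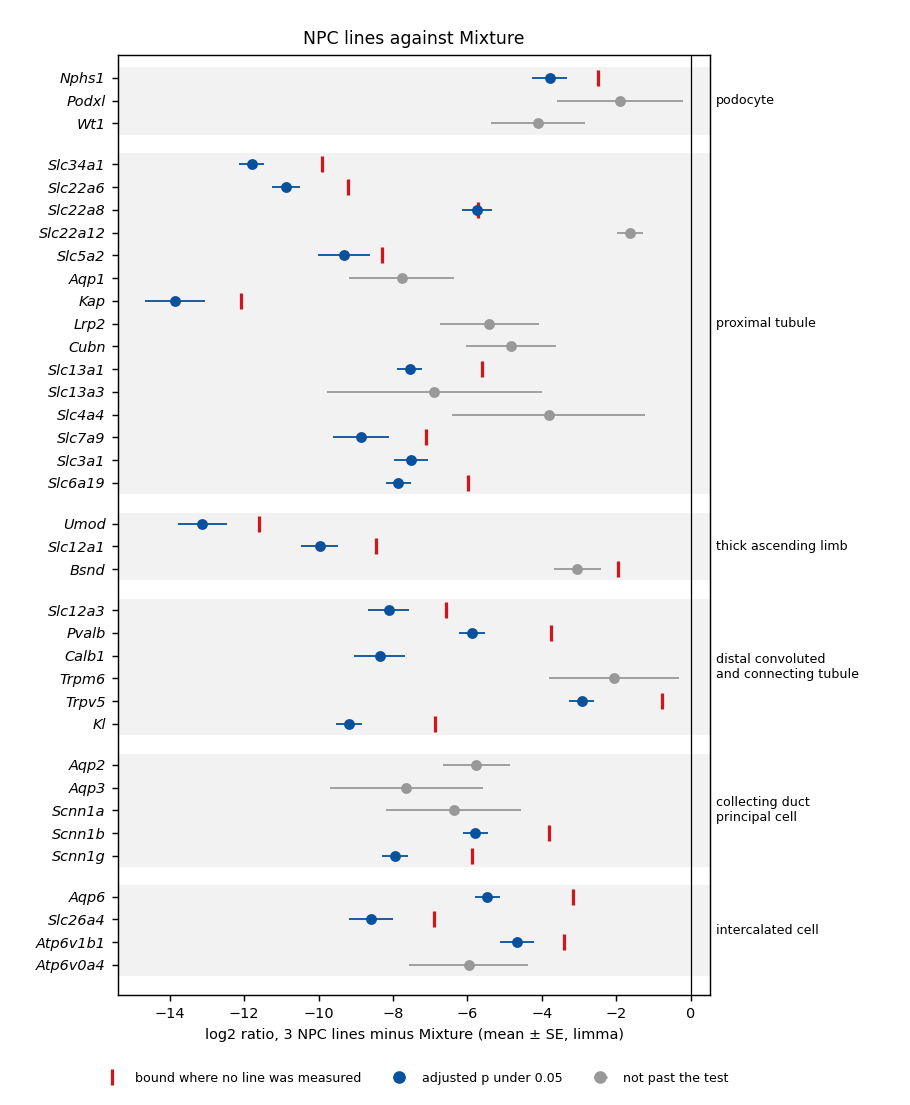
Log2 ratio of the 3 NPC lines to Mixture for each gene, as mean with SE from limma (x axis in log2 units). Blue points passed the test (22 genes), grey points did not (14 genes), and red marks give the bound for the 21 genes found in no line, from at least 1.72-fold lower for Trpv5 to at least 4314-fold lower for Kap.

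None of the 3 thick ascending limb genes was well above background in any line. Umod, which encodes uromodulin, the most abundant protein of normal urine, gave 22715 in Mixture and 2.68 (NS21), 3.54 (NS195R) and 1.39 (NSEB5-2C) in the lines. Slc12a1, the cotransporter of sodium, potassium and chloride that loop diuretics block, gave 2556 in Mixture and 1.74 (NS21), 3.22 (NS195R) and 2.41 (NSEB5-2C) in the lines. Umod was at least 3104-fold lower and Slc12a1 at least 349-fold lower in NPC (adjusted p = 0.00864 and 0.00859, limma). Bsnd, barttin, a chloride channel subunit, gave 28.3 in Mixture and 1.96 (NS21), 4.03 (NS195R) and 4.01 (NSEB5-2C) in the lines. Bsnd was at least 3.86-fold lower and did not pass the test (adjusted p = 0.0854, limma). It did with dim values raised (adjusted p = 0.0379, limma), which put all lines at nearly the same level and so narrowed their spread.

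In the distal convoluted and connecting tubule, 5 of 6 genes were called lower in NPC and Trpm6 was not. Slc12a3, the thiazide-sensitive sodium-chloride cotransporter, gave 697 in Mixture and 2.95 (NS21), 2.86 (NS195R) and 1.54 (NSEB5-2C) in the lines, at least 95.3-fold lower (adjusted p = 0.0114, limma). Kl, or Klotho, the co-receptor for FGF23, gave 863 in Mixture and 1.46, 1.4 and 1.31 in NS21, NS195R and NSEB5-2C, at least 118-fold lower (adjusted p = 0.00846, limma). The calcium-binding protein Pvalb was at least 13.5-fold lower, and the epithelial calcium channel Trpv5 at least 1.72-fold, which was the smallest bound of the 21. Trpv5 read 12.6 in Mixture, close to the lowest intensity well above background there, 8.104, and its call was lost with normexp correction, with scaling to the median and with dim values raised.

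Calb1, the calcium buffer calbindin of the connecting tubule and of many neurons, gave 2381 in Mixture and 6.67 (NS21), 11.2 (NS195R) and 4.09 (NSEB5-2C) in the lines. It was printed 10 times on each array: the copies ran from 2262 to 2494 in Mixture and from 9.64 to 13.7 in NS195R, where 8 of 9 kept copies were above background. In NS21 2 of 9 copies were, and in NSEB5-2C 0 of 9. Mixture was 207-fold above NS195R. Copies show technical error on an array and do not bear on differences between lines. Calb1 was called lower (log2 ratio -8.36, SE 0.68, adjusted p = 0.0155, limma). The SD over copies was 0.051 log2 units in Mixture and 0.472 in NSEB5-2C, which shows how much wider technical error was for dim spots.

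Trpm6, the magnesium channel of the distal convoluted tubule, gave 18.4 in Mixture and 18.7 (NS21), 1.99 (NS195R) and 1.86 (NSEB5-2C) in the lines. NS21 was level with Mixture and the other lines were at background. It did not pass limma (log2 ratio -2.06, SE 1.74, adjusted p = 0.488).

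In the collecting duct, principal cells take back sodium through the epithelial sodium channel, ENaC, and water through aquaporins. Of the ENaC subunits, Scnn1b gave 102 in Mixture and 1.61 to 1.79 in the lines, and Scnn1g gave 427 and 1.54 to 1.66. They were at least 13.9-fold and at least 58.3-fold lower (adjusted p = 0.00983 and 0.00846, limma). The alpha subunit Scnn1a gave 1263 in Mixture and 60.9 (NS21), 12.2 (NS195R) and 3.85 (NSEB5-2C) in the lines. NS21 and NS195R were above background for Scnn1a, and for the other subunits neither was. Scnn1a did not pass the test (log2 ratio -6.37, SE 1.81, adjusted p = 0.131, limma).

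Aqp2, the vasopressin-regulated water channel of the apical membrane, gave 1284 in Mixture and 39.3 (NS21), 11.5 (NS195R) and 23.7 (NSEB5-2C) in the lines. All lines were above background, and Mixture exceeded them by 30.1, 109 and 48.6-fold. The ratio lay just outside the threshold (log2 ratio -5.76, SE 0.90, adjusted p = 0.0546, limma). It lay inside with dim values raised (adjusted p = 0.0419, limma), although none of the Aqp2 values was itself raised. The same held with normexp correction (adjusted p = 0.00956, limma). With all probes averaged, Aqp2, which had 1 probe, lay just inside (adjusted p = 0.0498, limma). Aqp3, the basolateral water and glycerol channel that many epithelia share, gave 1802 in Mixture and 7.02 (NS21), 2.01 (NS195R) and 42 (NSEB5-2C) in the lines. NSEB5-2C was the line above background, 38.5-fold below Mixture, and Aqp3 did not pass limma (adjusted p = 0.122).

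Intercalated cells secrete acid or base. Slc26a4, pendrin, the apical chloride-bicarbonate exchanger, gave 879 in Mixture and 3.05 (NS21), 2.22 (NS195R) and 1.43 (NSEB5-2C) in the lines, at least 120-fold lower (adjusted p = 0.0114, limma). The proton pump subunit Atp6v1b1 gave 77 in Mixture and 3.53 (NS21), 3.07 (NS195R) and 2.12 (NSEB5-2C) in the lines, at least 10.5-fold lower (adjusted p = 0.0216, limma). The intracellular water channel Aqp6 was at least 9.02-fold lower (adjusted p = 0.0106, limma). These 3 genes were at background in all 3 lines.

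Atp6v0a4, the membrane subunit of the same pump in kidney, gave 448 in Mixture and 13.7 (NS21), 1.72 (NS195R) and 12.4 (NSEB5-2C) in the lines. NS21 and NSEB5-2C were above background and 30.2 and 32.4-fold below Mixture. The gene did not pass the test on this probe (log2 ratio -5.97, SE 1.60, adjusted p = 0.122, limma). It did with dim values raised (adjusted p = 0.0215, limma), which moved NS195R toward the other lines and so narrowed their spread. It also passed with normexp correction (adjusted p = 0.0133, limma) and with all probes averaged (adjusted p = 0.0246, limma). Its other probe gave 326 in Mixture and 2.21, 4.77 and 3.32 in NS21, NS195R and NSEB5-2C, where no line was above background, so the signal in NS21 and NSEB5-2C rests on 1 probe of 2.

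Differences between the lines were described by size alone, since each line has 1 array, with dim values raised to the array's lowest signal well above background. NSEB5-2C was at least 2-fold above both other lines for 4 of the 36 genes, against 5.6% of all genes tested. These were Aqp1 (6.38-fold over the next line), Lrp2 (4.91-fold), Cubn (4.15-fold) and Aqp3 (at least 6-fold). Megalin, cubilin and Aqp1 lie in the apical membrane of the proximal tubule, but the signal in NSEB5-2C did not extend to proximal genes in general. Slc34a1, Slc5a2, Slc6a19 and Slc7a9 were not above background in NSEB5-2C (1.75, 4.28, 1.79 and 1.48). The apical Slc22a12 was highest in NS21, and Aqp3 is a basolateral channel of the collecting duct list.

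NS21 stood above both other lines for Scnn1a (5.27-fold over NS195R) and Trpm6 (at least 2.86-fold), against 7.3% of all genes. NS195R stood above them for Slc13a3 (at least 11.9-fold) and Slc4a4 (at least 6.78-fold), against 10.3%. NS195R was below both others for Podxl (7.54-fold) and Aqp2 (2.24-fold), against 5.89%, and 0 of the 36 were so in NS21 (4.06% of all genes) or NSEB5-2C (6.3%). Each of these counts is small, and the differences between lines were not tested. With normexp correction, Slc13a3, Aqp1, Lrp2 and Cubn stayed above and Podxl stayed below, so NS21 stood above for none of the members. With all probes averaged, Slc13a3, Aqp1, Lrp2, Cubn and Aqp3 stayed above and Podxl and Aqp2 below, and NS21 again stood above for none.

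**Figure D3:**
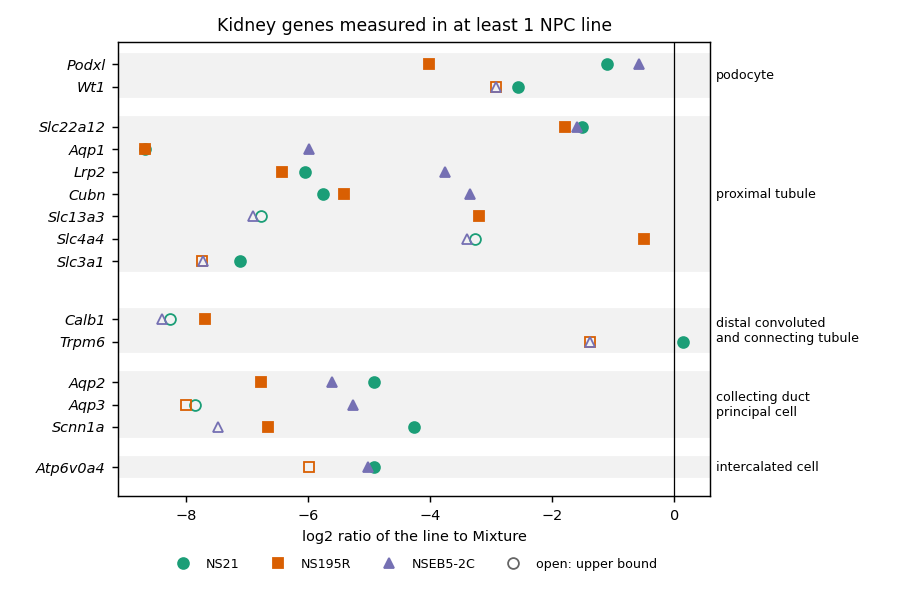
Log2 ratio of each line to Mixture for the 15 genes well above background in at least 1 NPC line. Filled symbols are measured and open symbols are upper bounds. NSEB5-2C lies to the right of both other lines for Aqp1, Lrp2, Cubn and Aqp3, NS195R for Slc13a3 and Slc4a4, and NS21 for Trpm6 and Scnn1a.

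Of the 36 genes, 11 had more than 1 probe, and where a gene had line signal the probes were set side by side. Lrp2 had 4 probes, and NSEB5-2C was the highest line on each: 404, 421, 12.1 and 7.56, where Mixture read 6071, 1946, 76.6 and 40.5. NS21 and NS195R were above background on the brighter pair, with 84.5 and 68.9 on the first and 35.9 and 31.1 on the second. Slc4a4 had 3 probes. On the second, Mixture read 18 and NS195R 10.9, with NS21 at 1.45 and NSEB5-2C at 1.28, so NS195R was again the sole line above background. The third, to another transcript, stayed below the background flag on all 4 arrays, at 1.57 to 1.95.

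For Slc12a1 the probe to another transcript stayed below that flag on all 4 arrays, with 1.93 in Mixture and 5.09 in NS21, while the probe used gave 2556 in Mixture. Scnn1a, Slc13a1 and Trpm6 each had a second probe that was not well above background anywhere, so that their values rest on 1 probe. The further probes of Kl, Slc34a1 and Slc22a8 agreed in kind: Mixture was above background, at 39.2, 22.5, 63.6 and 22.2, and no line was. The log2 ratio differed between probes of a gene, from -11.80 to -3.91 for Slc34a1 and from -9.18 to -4.63 for Kl, where the lines were at background on both.

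**Figure D4:**
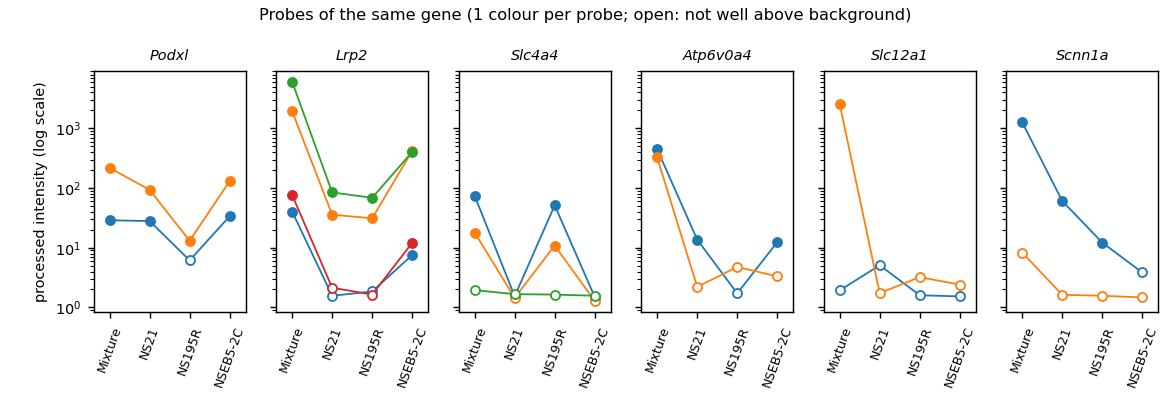
Processed intensity (log scale) of each probe of 6 genes on the 4 arrays, 1 colour per probe, with open symbols for signal not well above background. The 4 Lrp2 probes share a high NSEB5-2C among the lines, both Slc4a4 probes with signal share a high NS195R, and the Atp6v0a4 probes part in NS21 and NSEB5-2C.

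The same fit was read for other lists of kidney genes. Of 46 further genes of the glomerulus and tubules, 30 were called lower in NPC and 0 higher, against 8.91% and 0.948% of all genes. At an unadjusted p under 0.05 it was 38 and 0, against 15.4% and 15.6% of all genes. The median log2 ratio of the 46 was -7.21. They were all well above background in Mixture, against 17157 of all 19822 genes. Above background in no line were 28 of the 46, against 2037 of all genes. Those 28 passed the filter on dim signal through Mixture alone, so the counts of these lists support nothing. Of 17 further proximal genes, 13 were lower, among them Miox, the myo-inositol oxygenase of the proximal tubule (at least 5399-fold), and the transporters Slc17a3 (at least 162-fold), Slc22a2 (at least 121-fold) and Slc2a2 (at least 107-fold). Of 10 loop and distal genes, 7 were lower, including the potassium channel Kcnj1 (at least 299-fold) and the prostaglandin receptor Ptger3 (at least 28.1-fold). Of 12 collecting duct genes, 8 were lower, including Cdh16, kidney cadherin (at least 1326-fold), and Slc4a1, the anion exchanger of intercalated cells and red cells (at least 683-fold). Of 7 glomerulus genes, 2 were lower, among them Ren1, renin of the juxtaglomerular cells (at least 276-fold). The order in which the segments passed the test, fewest in the glomerulus, was not tested.

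Transcription factors of the kidney and its embryonic precursors were read in the same way. Of 21 listed, 19 were tested (Pax2 and Lmx1b were not), 5 were lower in NPC, 0 higher, and the median log2 ratio was -2.02. Over all genes, 8.91% were called lower and 0.948% higher. Hnf4a, a factor of proximal tubule and liver, was at least 57.5-fold lower (adjusted p = 0.00846, limma). Pax8 was at least 3.11-fold lower and Foxi1, a factor of intercalated cells, at least 1.53-fold. Grhl2, an epithelial factor, was also lower (log2 ratio -3.35), with 111 in Mixture and 8.79 to 11.7 in the lines.

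Of the 19 ratios, 15 were below 0, and the genes above 0 are given next. The nephron progenitor factor Six2 gave 3.56 in Mixture and 5.19 (NS21), 13 (NS195R) and 122 (NSEB5-2C) in the lines. It was not well above background in Mixture or NS21. Eya1, its partner in kidney and placode, gave 53.2 in Mixture and 33.9 (NS21), 465 (NS195R) and 740 (NSEB5-2C) in the lines. Sall1 gave 21.8 in Mixture and 44.7 (NS21), 125 (NS195R) and 19.8 (NSEB5-2C) in the lines, and Hnf4g gave 1.82, 13.1, 51.8 and 1.51 in the same order. Hnf4g was not well above background in Mixture or NSEB5-2C. The lines differed widely in these 4 genes, and none passed limma (adjusted p = 0.479, 0.552, 0.539 and 0.508).

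**Figure D5:**
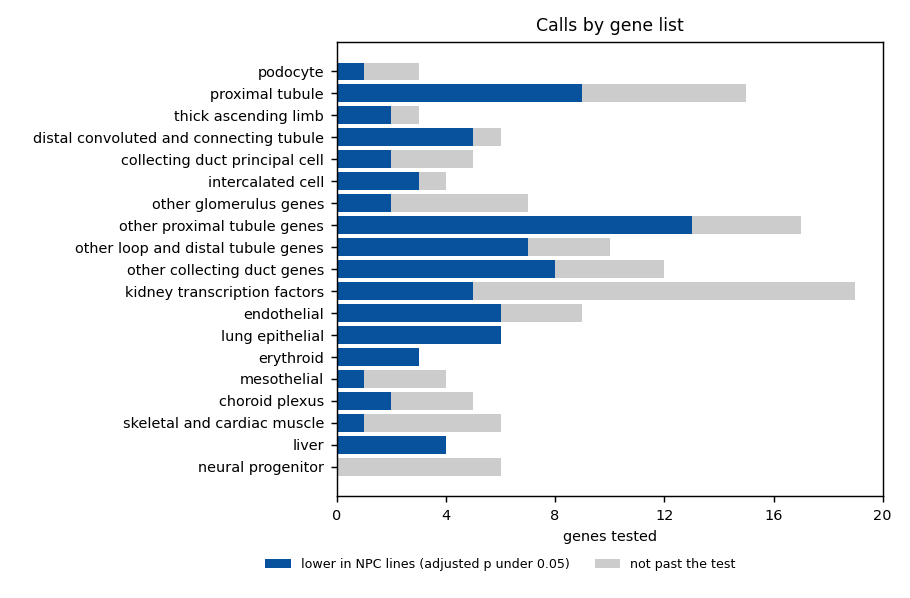
Number of genes tested in each of 19 gene lists (x axis), with those lower in the NPC lines in blue and those that did not pass limma in grey. The kidney segment lists are the upper rows. No list held a gene called higher, and the neural progenitor list, at the bottom, held no call.

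Mixture also holds RNA of other organs, and markers of their cells were read beside the kidney genes. Limma called 8.91% of all genes lower. Many of these markers passed the filter on dim signal through Mixture alone, so their counts support nothing. Endothelial markers were lower in 6 of 9, with a summed scaled signal of 48.1 in Mixture and 2.72 (NS21), 17.9 (NS195R) and 4.46 (NSEB5-2C) in the lines. In NS195R most of that sum was Emcn, at 4098 against 1855 in Mixture. Lung epithelial markers were lower in 6 of 6, liver in 4 of 4 tested, erythroid in 3 of 3 tested, choroid plexus in 2 of 5, muscle in 1 of 6 and mesothelial in 1 of 4, and the other markers of these lists did not pass. Otx2 of the choroid plexus list had a ratio above 0 (log2 3.21, adjusted p = 0.542, limma), but its Mixture signal, 2.2, was not well above background. Limma called 0 genes higher in any of the 19 lists, against 0.948% of all genes. At an unadjusted p under 0.05 it was 1, the neural progenitor marker Vim, against 15.6% of all genes. The part of other organs in the Mixture signal of Aqp1, Podxl, Pvalb and other members made outside the kidney was not tested.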

How the data were processed

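The 36 genes and all gene lists were chosen with earlier results of these data known. The deposited intensity of each spot is the processed, background-subtracted signal of Agilent Feature Extraction (version 9.5.3.1), per the file headers, and the deposited value table repeats it at all 45018 features. Here log2 of this signal was taken, less the array's percentile 75 over the 43379 non-control spots. Spots with a non-uniformity or population outlier flag were dropped (6 of the 69 member spots). Copies of a probe were averaged, and such a probe counted as well above background when most kept copies did. Saturated member spots numbered 0. Symbols were updated through RefSeq on GRCm38.p6, and all 51 member probes kept theirs. For the probe positions, a genome build was not given in the sources used here. Each of 27660 genes or transcripts was represented by its brightest probe on average. Of these, 19822 had a signal well above background somewhere and entered limma 3.58.1 in R 4.3.3 (lmFit, eBayes, two-sided tests, Benjamini-Hochberg, adjusted p under 0.05), with 2 residual and 1.33 prior degrees of freedom. For the single Mixture array the spread of the lines was assumed. P-values measure the spread between lines, which includes technical error. For genes found in no line, that spread is scatter of signal at background and not of expression. Its SD was 0.01 log2 units for Slc34a1. The procedure was also run on simulated data in which Mixture varied like the lines. That run could not test this assumption, and nothing here rests on it. Values are printed for genes measured in at least 1 line, for the 3 of each segment with the highest Mixture signal and for those with probes that disagree, and from other lists for up to 4 genes with the largest ratio past limma and for those of opposite direction. Alternatives were normexp correction (offset 50), quantile and median scaling, other filters, all probes averaged, names as in the files, outlier spots kept, an intensity trend and each line left out. Raising dim values and the filter on all 4 arrays were added after seeing the data. Some genes of the other lists are counted but not reported here by name.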

Additional observations from a re-analysis of the deposited data

How the results depend on the processing

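The count of 22 members lower in NPC stayed within 1.5 times under normexp correction (26, of which 20 shared), quantile scaling (22), median scaling (20), the mean of probes (24), dim values raised (25), no filter, names as in the files, outlier spots kept and an intensity trend. It fell to 0 with well above background required on at least 2 arrays, which left 15 members (11 at an unadjusted p under 0.05), and to 0 with all 4 arrays required, which left 6 (5 unadjusted). Without each line in turn it was 0, with 29 to 30 unadjusted. In each of these fits limma also called 0 of all genes tested, so the loss was not one of the members alone. No member was higher in limma under any of these settings, and none changed direction. Normexp correction added Slc22a12, Aqp1, Aqp2, Aqp3, Scnn1a and Atp6v0a4 and lost Nphs1 and Trpv5. The mean of probes added Aqp2 and Atp6v0a4 and lost none. Raising dim values added Wt1, Bsnd, Aqp2 and Atp6v0a4 and lost Trpv5. Because this setting narrows the spread between unmeasured lines, the calls it added support nothing.

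The median log2 ratio of -6.63 was -3.41 with normexp correction, -5.88 with median scaling, -5.76 on at least 2 arrays, -5.84 with the mean of probes, -5.73 with dim values raised and -5.12 on all 4 arrays, and -6.91 to -6.34 without each line. The median of all genes was 0.44, 0.22 with normexp correction, 0.56 with quantile and 1.19 with median scaling. Members at least 2-fold above both other lines numbered 8, against 4 with normexp correction, 5 with the mean of probes and 11 with dim values not raised. NSEB5-2C held 4 of the 8, NS195R 2 and NS21 2. With dim values raised, 5.6%, 10.3% and 7.3% of all 19822 genes stood above in these lines, respectively. The members were not tested against these shares, so the count of 8 shows no excess of line differences among them. The cause of the shifts between settings was not tested. A filter leaves fewer genes, and leaving out a line leaves fewer arrays. No paired analysis was possible because Mixture is 1 array and shares no pairing with the lines.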

Other observations

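Some genes of the wider kidney lists differed widely between the lines. They were chosen after their values were seen. Ptpro, a receptor phosphatase of podocytes that is also made in brain, gave 333 in Mixture and 3.01 (NS21), 1782 (NS195R) and 6.33 (NSEB5-2C) in the lines. Slc7a7, the light chain of a basolateral amino acid exchanger that is also made in macrophages, gave 4345 in Mixture and 4612 (NS21), 224 (NS195R) and 458 (NSEB5-2C) in the lines. Irx1, a factor of intermediate nephron segments and of the early neural plate, gave 1220 in Mixture and 9.67 (NS21), 717 (NS195R) and 218 (NSEB5-2C) in the lines. None of these 3 passed limma (adjusted p = 0.67, 0.506 and 0.499), and with 1 array per line the differences between lines were not tested.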
